A study of Caenorhabditis elegans with 20 samples.

Results

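The 10 genes described here handle homocysteine, cysteine and sulfide in *Caenorhabditis elegans*, or repair methionine: *cbs-1*, *cbs-2*, *cth-1*, *cth-2*, *cysl-1*, *cysl-2*, *cdo-1*, *sqrd-1*, *rips-1* and *msra-1*. They were chosen by name from the 22736 genes of the read count table, for their place in these pathways. Earlier results of these data were known when they were chosen. All 10 were found in the table, and 9 had enough reads to be tested. RNA was sequenced from the bodies of gravid adults on the first day of adulthood in 4 groups, each of 5 biological replicates. They were *Δdhgd-1* mutants with vitamin B12, *Δdhgd-1* mutants without supplement, wild-type (WT) animals with vitamin B12, and WT animals without supplement. The mutants carry *dhgd-1(tm6671)*, a large deletion at the 5′ end of the gene for D-2-hydroxyglutarate dehydrogenase, which is predicted to abolish its function. This is a single allele that was backcrossed to the wild-type strain N2. Vitamin B12 was 64 nM adenosylcobalamin in the plates. All animals fed on *E. coli* OP50 at 20 °C, and the cultures from which every group was synchronized had been kept on vitamin B12.

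Homocysteine stands at a fork. Methionine synthase, which needs vitamin B12, turns it back into methionine, whereas transsulfuration turns it into cysteine by way of cystathionine. Cystathionine β-synthase joins homocysteine to serine, and cystathionine γ-lyase splits the product into cysteine, ammonia and 2-oxobutyrate, which can be broken down to propionyl-CoA. Cysteine is then used for protein and glutathione, oxidized by cysteine dioxygenase, or broken down to hydrogen sulfide, which mitochondria oxidize.

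Reads were counted at the 3′ end of transcripts with Cel-seq2, so levels are compared here between groups and not between genes. Levels are CPM, the reads of a gene scaled by the library total and its TMM factor. Library totals ranged from 2837943 to 15457950. A gene was called when its adjusted p in edgeR's quasi-likelihood test was under 0.05 and its fold change over 1.5, over 11270 genes tested. The propionate shunt gene *acdh-1*, which vitamin B12 is known to repress, was used as a check of the supplement. It had 14.4 to 109.9 CPM in supplemented mutants against 204.5 to 389.7 CPM in unsupplemented mutants, and 5.43 to 30.6 CPM in supplemented WT against 195.5 to 377 CPM in unsupplemented WT. The reads of *dhgd-1* cannot check the genotype, because they come from the 3′ end and the deletion lies at the 5′ end. It had 5.83 to 22.1 CPM in supplemented mutants and 18.5 to 53.0 CPM in unsupplemented mutants, against 6.80 to 9.34 CPM in supplemented WT and 16.6 to 29.2 CPM in unsupplemented WT. Although the label reads whole organism, eggs were excluded, and the summed level of 8 early embryo markers was at most 1.40 CPM in any library. Replicate 7 of supplemented WT stood apart: its median correlation with its group was 0.927, against 0.935 to 0.973 in the other libraries. Its summed level was 847.6 CPM over 5 intestine markers, against 4912 to 6436 CPM in the other supplemented WT libraries. Its body wall muscle markers (1074 against 2506 to 5123 CPM) and oocyte and germline markers (920 against 2703 to 3797 CPM) were also the lowest of the group. So were its hypodermis and adult cuticle markers (102.9 against 235.7 to 372 CPM). Its early embryo markers were instead the highest of the group (1.40 against 0.36 to 0.94 CPM). In whole bodies, fewer cells of a type and less RNA per cell cannot be told apart.

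Vitamin B12 changed some of these genes in both strains, in 2 directions. In *Δdhgd-1* mutants it raised *cbs-1* and *cth-2* and lowered *rips-1* and *msra-1*, which makes 4 of the 9 members tested, where 1.86% of all genes tested were called. In WT it raised *cbs-1* and lowered *rips-1* and *msra-1*, 3 of 9, against 1.45% of all genes. Between the strains, *cth-2* was the member called, at a lower level in unsupplemented mutants than in unsupplemented WT (1 of 9, against 2.81% of all genes). Between the supplemented strains edgeR called 0 members, against 0.55% of all genes, and DESeq2 also called 0 there. Of the 9 members, 3 (*cth-1*, *cth-2* and *rips-1*) had an unadjusted p under 0.05 in that comparison, against 6.79% of all genes. At the same threshold there were 3 between the unsupplemented strains (15.1% of all genes), 5 with vitamin B12 in mutants (10.5%) and 3 in WT (7.85%). The median log2 fold change of the 9 members was 0.15 with vitamin B12 in mutants (0.01 over all genes) and 0.02 in WT (-0.03 over all genes). Between mutants and WT it was 0.53 without supplement (-0.03 over all genes) and -0.08 with vitamin B12 (0.01 over all genes). These comparisons share groups, so their values are not independent of each other. The members were chosen with earlier results of these data known, so their counts cannot show an excess over all genes.

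**Figure D1:**
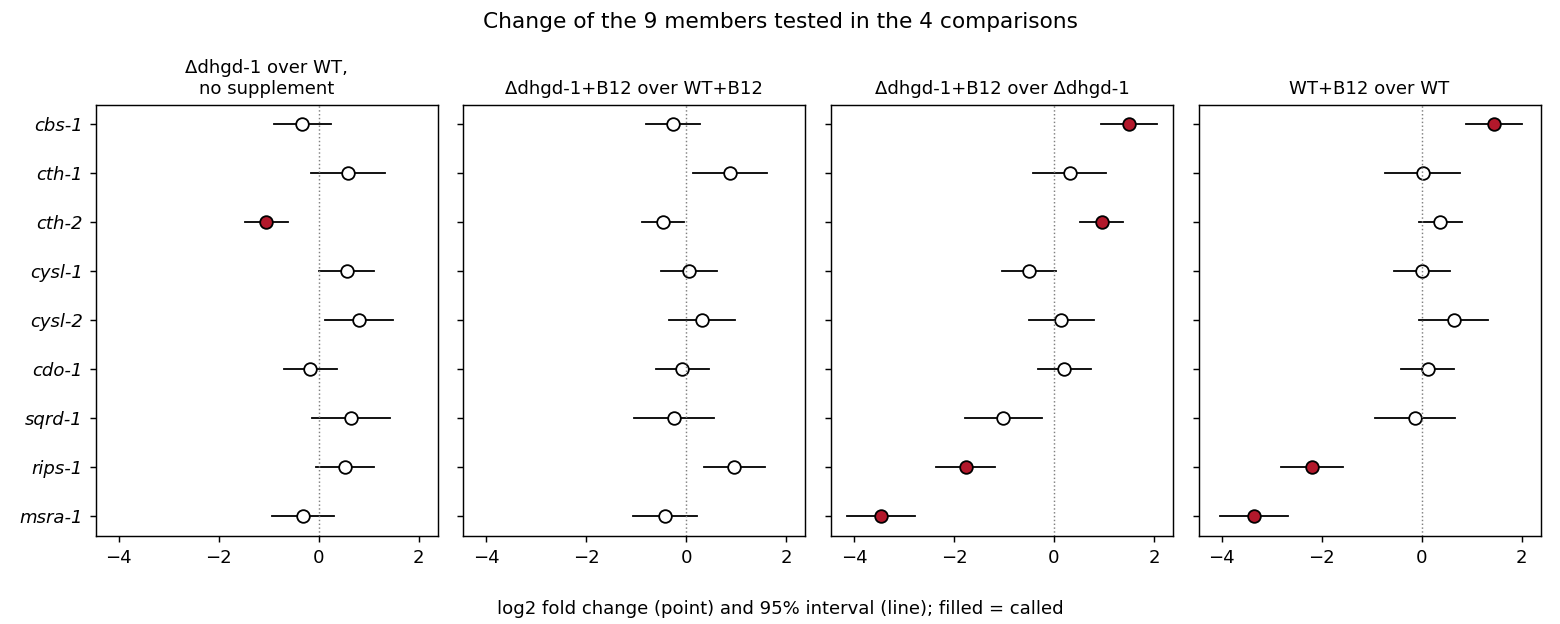
Log2 fold change of the 9 members tested (points) with its 95% interval (lines) in the 4 comparisons, the first-named group over the second; filled points were called. The intervals of *rips-1* and *msra-1* lie below 0 and those of *cbs-1* above 0 in both vitamin B12 panels, whereas *cth-2* is called in mutants without supplement and with vitamin B12 in mutants.

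The largest change of any member was in *msra-1*, the gene for methionine sulfoxide reductase A, which reduces oxidized methionine (WBGene00018393; chromosome II, 7363220 to 7364040, minus strand, 2 exons). With vitamin B12 the mutants had 16.3, 24.03, 25.2, 28.3 and 40.6 CPM in replicates 1, 2, 5, 6 and 7. Without supplement the mutants had 420.6, 218, 208, 311 and 308.5 CPM. The groups lay far apart, the highest supplemented library being well below the lowest unsupplemented library. The log2 fold change was -3.46 (standard error 0.33, edgeR adjusted p = 3.38e-07), and the gene ranked number 8 of all genes by p. In WT, *msra-1* had 39.8, 29.9, 34.9, 34.9 and 40.9 CPM with vitamin B12, against 571, 130.5, 212.5, 479 and 452 CPM without supplement. Here too the groups did not overlap, and the log2 fold change was -3.36 (standard error 0.33, edgeR adjusted p = 4.41e-07, number 10 by p). The supplemented WT libraries were close to each other, whereas the unsupplemented WT libraries were widely spread. Without replicate 7 of supplemented WT, the log2 fold change in WT was -3.40.

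*msra-1* was not called between the strains. Its log2 fold change of mutants over WT was -0.32 without supplement (95% interval -0.94 to 0.30, edgeR adjusted p = 0.690) and -0.43 with vitamin B12 (-1.07 to 0.21, adjusted p = 0.878). The vitamin B12 effect differed between mutants and WT by -0.11 (standard error 0.43, adjusted p = 0.999). On the opposite strand *insc-1* overlaps the 3′ end of *msra-1* by 41 bases, and it had at most 12 reads in any library.

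Next in size was *rips-1*, a gene of the sulfide response that encodes a predicted methyltransferase (WBGene00019963; chromosome V, 3772021 to 3774609, plus strand, 5 exons). With vitamin B12 the mutants had 40.4, 28.2, 16.1, 8.86 and 9.48 CPM, against 56.7, 93.8, 52.1, 48.6 and 59.9 CPM without supplement. All supplemented libraries were below all unsupplemented ones, and replicates 1 and 2 were the highest of the supplemented mutants. On the log2 scale *rips-1* changed by -1.77 (edgeR adjusted p = 0.000548, standard error 0.29). In WT, *rips-1* had 16.7, 18.5, 7.69, 4.46 and 5.69 CPM with vitamin B12, against 54.7, 35.8, 44.7, 48.1 and 25.8 CPM without supplement. The groups did not overlap, and the change was -2.20 on the log2 scale (standard error 0.30, edgeR adjusted p = 5.09e-05). Without replicate 7 of supplemented WT it was -2.12 (adjusted p = 0.000226).

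The level of *rips-1* was higher in mutants than in WT in 5 of 5 same-numbered pairs, both without and with vitamin B12. Without supplement, replicates 1 (56.7 against 54.7 CPM) and 6 (48.6 against 48.1 CPM) were close to level. Neither strain difference was called. On the log2 scale the difference was 0.53 without supplement (95% interval -0.05 to 1.11, edgeR adjusted p = 0.387). With vitamin B12 it was 0.96 (0.35 to 1.57, unadjusted p = 0.00325, edgeR adjusted p = 0.262). The vitamin B12 effect differed between the strains by 0.43 (standard error 0.40, adjusted p = 0.999). The 3′ end of *rips-1* overlaps that of *cysl-3*, a cysteine synthase-like gene on the opposite strand, by 74 bases. Whether counting used the strand is not given in the sources used here, so reads in the overlap cannot be told apart. *cysl-3* had 10.25 to 33.9 CPM over all libraries and was not called in any of the 4 comparisons. With vitamin B12 its log2 fold change was -0.35 in mutants (standard error 0.24, adjusted p = 0.704) and -0.40 in WT (standard error 0.24, adjusted p = 0.835).

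The entry enzyme of transsulfuration moved the other way. *cbs-1*, a gene for cystathionine β-synthase (WBGene00013866; chromosome X, 10054275 to 10057528, plus strand, 10 exons), had 40.7, 33.1, 17.9, 27.5 and 26.1 CPM in supplemented mutants. Unsupplemented mutants had 12.9, 8.22, 7.45, 9.15 and 11.1 CPM. The groups did not overlap, and the log2 fold change was 1.51 (standard error 0.27, edgeR adjusted p = 0.00168). In WT it had 57.5, 55.6, 30.1, 32.1 and 10.7 CPM with vitamin B12, against 23.3, 16.7, 7.68, 10.7 and 8.85 CPM without supplement. It was higher with vitamin B12 in 5 of 5 pairs, but the groups overlapped because replicate 7, the library that stood apart, was far below the other supplemented libraries. In WT the log2 fold change was 1.45 (standard error 0.27, edgeR adjusted p = 0.00285), and it was 1.66 without that library (adjusted p = 3.04e-05).

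*cbs-1* was not called between mutants and WT, with a log2 difference of -0.32 without supplement (95% interval -0.89 to 0.24, edgeR adjusted p = 0.654) and of -0.27 with vitamin B12 (-0.81 to 0.27, adjusted p = 0.906). The effect of vitamin B12 differed between mutants and WT by 0.06 (standard error 0.38, adjusted p = 0.999). Its paralog *cbs-2* (WBGene00018783; chromosome II, 2220396 to 2223567, minus strand, 7 exons) had 2 reads in supplemented mutants, 2 in unsupplemented mutants, 5 in supplemented WT and 2 in unsupplemented WT, summed over the 5 libraries of each group. No library had more than 3 reads, which is the limit that a count of 0 allows, so no fold change is given.

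**Figure D2:**
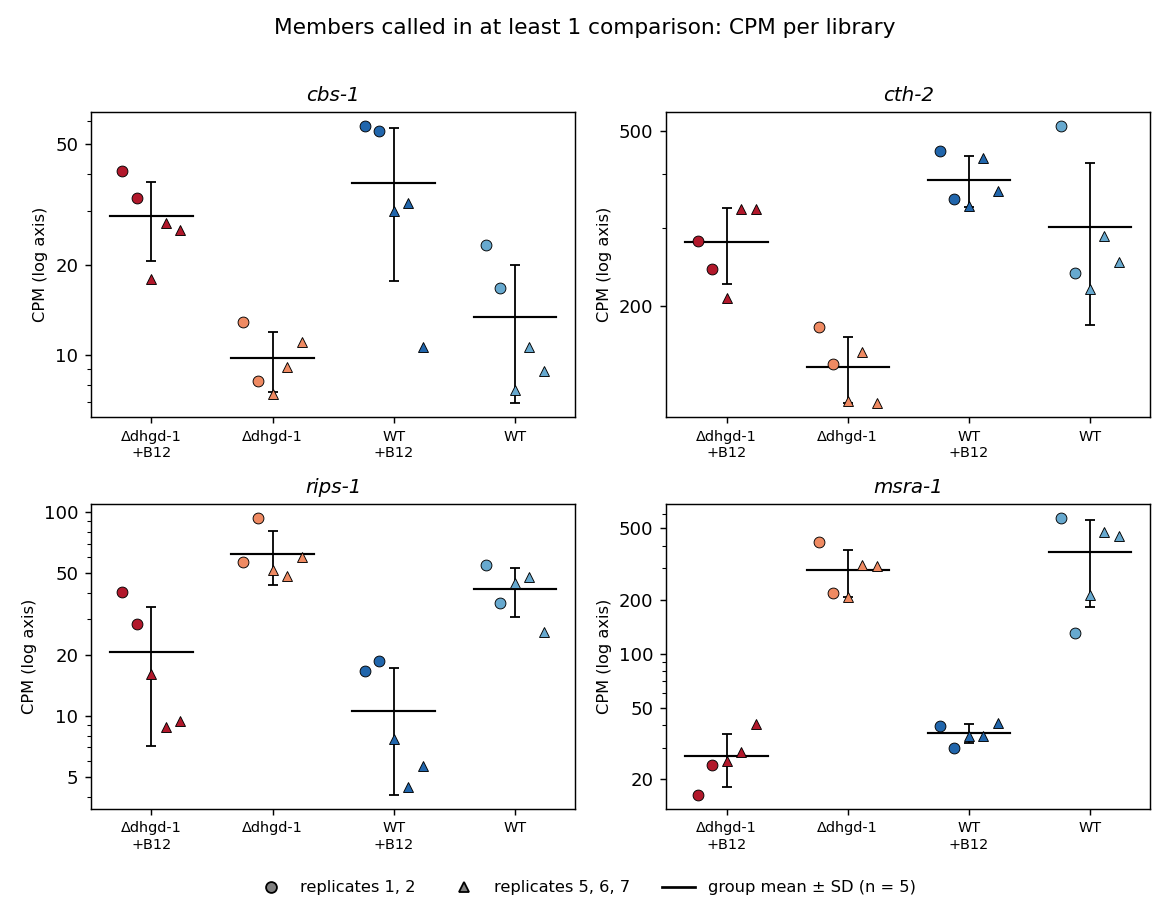
CPM per library (log axis) of *cbs-1*, *cth-2*, *rips-1* and *msra-1* in the 4 groups; circles are replicates 1 and 2, triangles replicates 5, 6 and 7, and lines the group mean ± SD (n = 5). The supplemented libraries of *msra-1* (16.3 to 40.9 CPM) all lie below its unsupplemented libraries (130.5 to 571 CPM) in both strains, and *cth-2* is lowest in unsupplemented mutants (120.1 to 179 CPM).

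Among the members called, the strain difference was in *cth-2*, which encodes a cystathionine γ-lyase, the enzyme that releases cysteine (WBGene00022856; chromosome II, 7056184 to 7057960, minus strand, 3 exons). Unsupplemented mutants had 179, 148, 121, 157 and 120.1 CPM, against 513, 237, 218, 288 and 252 CPM in unsupplemented WT. All mutant libraries were below all WT libraries, and replicate 1 was far above the other WT libraries. The log2 fold change of mutants over WT was -1.05 (standard error 0.21, edgeR adjusted p = 0.00467). Without that WT library it was -0.76 (adjusted p = 0.0372). The summed level of 3 hypodermis and adult cuticle markers was 153.1 to 233.4 CPM in unsupplemented mutants, against 611.7 CPM in that WT library and 163.4 to 287 CPM in the other unsupplemented WT libraries. Its intestine markers (2587 CPM) lay within the range of those other libraries (2346 to 6128 CPM). So did its body wall muscle markers (2699 against 2009 to 4735 CPM) and oocyte and germline markers (2971 against 1789 to 4866 CPM). The part of these marker levels in the result was not tested. With vitamin B12, the mutants had 281, 243, 208, 332 and 332.5 CPM, against 449.8, 349.8, 337.5, 435 and 366 CPM in WT. Again no mutant library reached the lowest WT library, but the log2 fold change was -0.46 (standard error 0.21, unadjusted p = 0.0344, edgeR adjusted p = 0.695) and was not called. The groups overlapped when levels were scaled by library totals alone.

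Vitamin B12 raised *cth-2* in mutants, in 5 of 5 pairs and with no overlap of the groups, by 0.96 on the log2 scale (standard error 0.21, edgeR adjusted p = 0.0108). This call was lost without replicate 6 (0.86, adjusted p = 0.0514) or replicate 7 (0.84, adjusted p = 0.0578) of the supplemented mutants. In WT the change was 0.38 (95% interval -0.05 to 0.81, adjusted p = 0.752), and it was higher in 4 of 5 pairs. Without replicate 1 of unsupplemented WT it was 0.67 (adjusted p = 0.112). The vitamin B12 effect was 0.58 larger in mutants than in WT (standard error 0.29, unadjusted p = 0.0578, adjusted p = 0.999), and this was 0.26 without the same WT library, so a difference between the strains in this effect was not shown. *cth-2* overlaps *ZK1127.3* on the opposite strand by 8 bases at its 3′ end. *ZK1127.3* had a log2 fold change of -0.24 in unsupplemented mutants against WT (standard error 0.18, adjusted p = 0.589) and of 0.10 with vitamin B12 in mutants (standard error 0.18, adjusted p = 0.939).

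Its paralog *cth-1* (WBGene00009048; chromosome V, 16100680 to 16102750, plus strand, up to 3 exons) was not called in any of the 4 comparisons. It had 28.4 ± 10.1 CPM in supplemented mutants and 23.1 ± 10.4 CPM in unsupplemented mutants, against 15.7 ± 7.40 CPM in supplemented WT and 15.2 ± 7.15 CPM in unsupplemented WT (SD, n = 5 each). The log2 fold change of mutants over WT was 0.58 without supplement (95% interval -0.16 to 1.32, edgeR adjusted p = 0.484). Without replicate 2 of unsupplemented mutants this was 0.32 (adjusted p = 0.798), and without replicate 5 of unsupplemented WT it was 0.95 (adjusted p = 0.190). Between the supplemented strains it was 0.87 (0.13 to 1.62, unadjusted p = 0.0233, adjusted p = 0.636), higher in 5 of 5 pairs. With vitamin B12 the log2 fold change of *cth-1* was 0.32 in mutants (-0.41 to 1.05) and 0.02 in WT (-0.73 to 0.78). The groups overlapped in each comparison. How reads that match both paralogs were assigned is not given in the sources used here.

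Of the groups without overlap, *cbs-1* and *cth-2* were higher and *rips-1* and *msra-1* lower with vitamin B12 in mutants, 4 of 9, where 2.53% of all genes did not overlap. In WT these were *rips-1* and *msra-1*, 2 of 9, against 1.47% of all genes. Between the strains it was *cth-2* in both comparisons, lower in mutants, against 2.75% of all genes without supplement and 0.905% with vitamin B12. These counts too are of members chosen with earlier results known.

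The cysteine synthase-like members were not called in any comparison. *cysl-1*, which in *C. elegans* senses sulfide and acts on the HIF-1 pathway (WBGene00007653; chromosome X, 9952579 to 9954533, minus strand, 6 exons), had 4.54 to 9.32 CPM in supplemented mutants and 5.27 to 17.2 CPM in unsupplemented mutants. In WT it had 3.24 to 10.9 CPM with vitamin B12 and 4.10 to 8.31 CPM without supplement. Mutants were higher than WT without supplement in 5 of 5 pairs, by 0.56 on the log2 scale (95% interval 0.01 to 1.11, unadjusted p = 0.0460, edgeR adjusted p = 0.3195). Vitamin B12 gave lower values in 5 of 5 mutant pairs (-0.49, -1.03 to 0.05, adjusted p = 0.561), and in WT the value was 0.01 (-0.55 to 0.58).

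*cysl-2*, whose product detoxifies cyanide (WBGene00010759; chromosome II, 14492874 to 14494451, minus strand, 3 exons), had 7.77 to 33.9 CPM in supplemented mutants and 8.04 to 16.7 CPM in unsupplemented mutants. The WT ranges were 4.12 to 19.5 CPM with vitamin B12 and 4.07 to 11.4 CPM without supplement. Its log2 fold change of mutants over WT without supplement was 0.81 (95% interval 0.13 to 1.48, unadjusted p = 0.0209, edgeR adjusted p = 0.222), again higher in 5 of 5 pairs. With vitamin B12 the difference between the strains was 0.32 (-0.34 to 0.98), and with vitamin B12 its log2 fold change was 0.15 in mutants (-0.51 to 0.80) and 0.64 in WT (-0.05 to 1.32, adjusted p = 0.708). Replicate 1 alone gave the upper end in supplemented mutants, where the other libraries had at most 16.2 CPM. The opposite-strand gene *vnut-1* overlaps the 3′ end of *cysl-2* by 36 bases. It had 87.8 to 279 CPM over all libraries, far above *cysl-2*, and reads in the overlap cannot be told apart. *vnut-1* was not called in any of the 4 comparisons. Its log2 fold change of mutants over WT without supplement was -0.02 (standard error 0.24, edgeR adjusted p = 0.9835).

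*cdo-1*, the gene for cysteine dioxygenase (WBGene00018986; chromosome X, 862267 to 863578, minus strand, 5 exons), was not called in any comparison. It had 24.1 ± 4.98 CPM in supplemented mutants and 20.7 ± 3.94 CPM in unsupplemented mutants, against 25.4 ± 6.92 CPM in supplemented WT and 23.3 ± 10.4 CPM in unsupplemented WT (SD, n = 5 each). Its 4 log2 fold changes lay between -0.17 and 0.21, and their 95% intervals between -0.70 and 0.73. The opposite-strand gene *F56F10.2*, which overlaps its 3′ end by 195 bases, had at most 8 reads in any library.

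*sqrd-1*, which encodes the mitochondrial sulfide:quinone oxidoreductase (WBGene00008538; chromosome IV, 14219871 to 14224440, plus strand, up to 8 exons), was sparsely read, with 12 to 101 reads per library. It had 3.97, 7.11, 3.10, 1.84 and 1.87 CPM in supplemented mutants, against 3.93, 9.05, 6.97, 6.01 and 5.39 CPM in unsupplemented mutants. The supplemented libraries were lower in 4 of 5 pairs and level in replicate 1. This gave a log2 fold change of -1.02 (95% interval -1.79 to -0.25, unadjusted p = 0.0118, edgeR adjusted p = 0.247). In WT it had 4.34, 5.42, 3.48, 3.72 and 2.28 CPM with vitamin B12, against 13.03, 3.33, 2.36, 3.56 and 1.48 CPM without supplement, and replicate 1, the library with the high hypodermis and cuticle marker sum, was far above the other unsupplemented libraries. The change in WT was -0.13 (-0.93 to 0.68, adjusted p = 0.996). Without that library it was 0.48 (adjusted p = 0.910). Mutants over WT gave 0.65 without supplement (-0.13 to 1.42, adjusted p = 0.450), which was 1.23 without the same library (adjusted p = 0.0678).

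**Figure D3:**
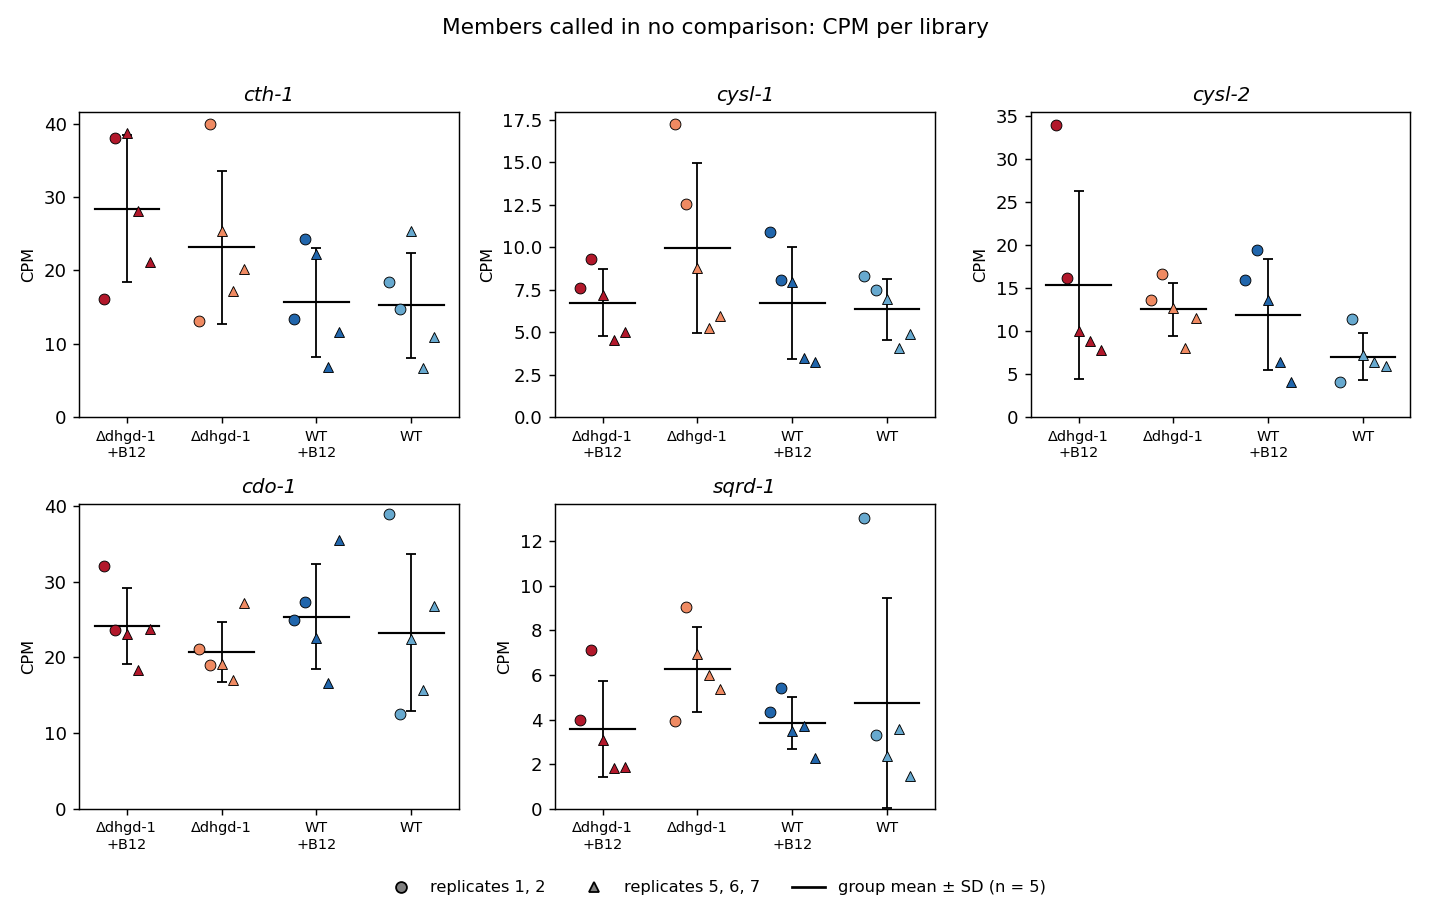
CPM per library (linear axis from 0) of *cth-1*, *cysl-1*, *cysl-2*, *cdo-1* and *sqrd-1* in the 4 groups; circles are replicates 1 and 2, triangles replicates 5, 6 and 7, and lines the group mean ± SD (n = 5). All groups of these genes overlap, and single libraries such as WT replicate 1 of *sqrd-1* (13.03 CPM) stand above their group.

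The vitamin B12 effect was compared between the strains in an interaction test. There edgeR called 0 of the 9 members, against 0.0444% of all genes, 0 members had an unadjusted p under 0.05, and DESeq2 called 0. The largest of these differences was -0.89 for *sqrd-1* (95% interval -2.01 to 0.23, adjusted p = 0.999). It was -1.46 without replicate 1 of unsupplemented WT (adjusted p = 0.696). Within replicates 5, 6 and 7 it was -1.84 (adjusted p = 0.911), and within replicates 1 and 2 it was 0.46 (adjusted p = 0.960), so its sign differed between the series of library names.

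The directions of the called changes were the same within each series of library names, which splits replicates 1 and 2 from replicates 5, 6 and 7. With vitamin B12, the log2 fold change of *msra-1* was -4.05 in mutants and -3.32 in WT in replicates 1 and 2, and -3.14 and -3.37 in replicates 5, 6 and 7. For *rips-1* the values were -1.16 in mutants and -1.33 in WT in replicates 1 and 2, and -2.22 and -2.72 in replicates 5, 6 and 7. *cbs-1* gave 1.75 in mutants and 1.53 in WT in replicates 1 and 2, and 1.37 and 1.43 in replicates 5, 6 and 7. *cth-2* in unsupplemented mutants against WT gave -1.11 in replicates 1 and 2 and -0.93 in the others, and with vitamin B12 in mutants it gave 0.64 and 1.13. In replicates 5, 6 and 7 alone the vitamin B12 changes of *msra-1* and *rips-1* in both strains and of *cth-2* in mutants were called by edgeR. In replicates 1 and 2 alone, 0 members were called.

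Across the 20 libraries, after the mean of each series of library names had been taken off, *rips-1* and *msra-1* varied together (Pearson r = 0.773 over log2 CPM). *cbs-1* ran against both (r = -0.778 with *rips-1* and -0.773 with *msra-1*) and with *cth-2* (r = 0.692). These correlations include the group differences themselves and are given as a description. Of the 11269 other genes tested, those most like *rips-1* were *acs-2* (r = 0.917), an acyl-CoA synthetase gene, *hphd-1* (r = 0.897), a dehydrogenase gene of the propionate shunt, and *F32D8.11* (r = 0.891). Those most like *msra-1* were *clec-47* (r = 0.959), *ZK593.3* (r = 0.957) and *clc-24* (r = 0.948). Those most like *cbs-1* were the collagen gene *col-43* (r = 0.863), *asm-3* (r = 0.833), which encodes an acid sphingomyelinase, and *D1086.3* (r = 0.820). Those most like *cth-2* were *ZK512.7* (r = 0.937), *B0454.5* (r = 0.934) and the acid phosphatase gene *pho-7* (r = 0.932).

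Neighbouring genes of these pathways were listed as 35 genes, of which 32 were in the table by symbol and 28 were tested. They too were chosen with earlier results of these data known. Their lists were cysteine synthase-like and cystathionine lyase relatives, sulfide and sulfite oxidation, the HIF-1 pathway, glutathione synthesis, molybdenum cofactor synthesis, and homocysteine entry. Between the strains edgeR called 0 of 28 both without supplement, against 2.81% of all genes, and with vitamin B12, against 0.55%, and DESeq2 called 0 in each. With vitamin B12 edgeR called 2 in mutants, against 1.86% of all genes, and 2 in WT, against 1.45%, and all of these were lower. An unadjusted p under 0.05 was reached by 2 of 28 between the unsupplemented strains (15.1% of all genes), by 1 between the supplemented strains (6.79%), by 6 with vitamin B12 in mutants (10.5%) and by 6 in WT (7.85%). The median log2 fold change of the 28 was -0.01 in mutants (0.01 over all genes) and -0.13 in WT (-0.03 over all genes). Besides *cysl-3*, the relatives of the members were *cysl-4* and *cbl-1*, a cystathionine β-lyase gene. *cysl-4* had at most 1 read in any library and was not tested. *cbl-1* was not called in any comparison. It had 22.3 ± 0.953 CPM in unsupplemented mutants, against 32.4 ± 6.95 CPM in unsupplemented WT (SD, n = 5 each; log2 fold change -0.54, standard error 0.19, unadjusted p = 0.00966, edgeR adjusted p = 0.149).

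*ahcy-1*, which encodes the enzyme that releases homocysteine from S-adenosylhomocysteine, was called in both strains. It had 1361, 1685, 1136, 1502 and 1083 CPM in supplemented mutants, against 4147, 2598, 2622, 2432 and 2436 CPM in unsupplemented mutants. In WT it had 1552, 1598, 1425, 1392 and 511.9 CPM with vitamin B12, against 3589, 2699, 2667, 2656 and 1758 CPM without supplement. The groups did not overlap in either strain, and replicate 7 gave the lowest WT value on both plates. Vitamin B12 changed it by -1.06 on the log2 scale in mutants (standard error 0.22, edgeR adjusted p = 0.00764) and -1.05 in WT (standard error 0.22, adjusted p = 0.00942).

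The other called neighbours were *semo-1* and *rhy-1*. *semo-1*, a methanethiol oxidase gene whose product forms hydrogen sulfide, fell in WT with vitamin B12 to 4.76 ± 2.89 CPM, against 12.9 ± 6.51 CPM without supplement (SD, n = 5 each; log2 fold change -1.58, standard error 0.34, edgeR adjusted p = 0.0110). In mutants it had 4.33 ± 2.52 CPM with vitamin B12 and 9.28 ± 6.96 CPM without (log2 fold change -1.06, standard error 0.33, adjusted p = 0.129). It was lower with vitamin B12 in 5 of 5 pairs of each strain, with overlapping groups. The WT call was lost without replicate 6 of supplemented WT (-1.42, adjusted p = 0.0567) or replicate 7 of unsupplemented WT (-1.20, adjusted p = 0.0622). *rhy-1*, a repressor of HIF-1, fell in mutants to 13.3 ± 5.10 CPM with vitamin B12, against 28.1 ± 6.29 CPM without supplement (log2 fold change -1.13, standard error 0.29, edgeR adjusted p = 0.0421), with no overlap. This call was lost in 9 of 10 fits that left out a library of either mutant group (adjusted p up to 0.140). In WT *rhy-1* had 17.1 ± 10.1 CPM with vitamin B12 and 24.9 ± 14.3 CPM without (log2 fold change -0.47, standard error 0.29, adjusted p = 0.835). Within either series of library names alone, no call of *ahcy-1*, *semo-1* or *rhy-1* was made, although each kept its direction.

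**Figure D4:**
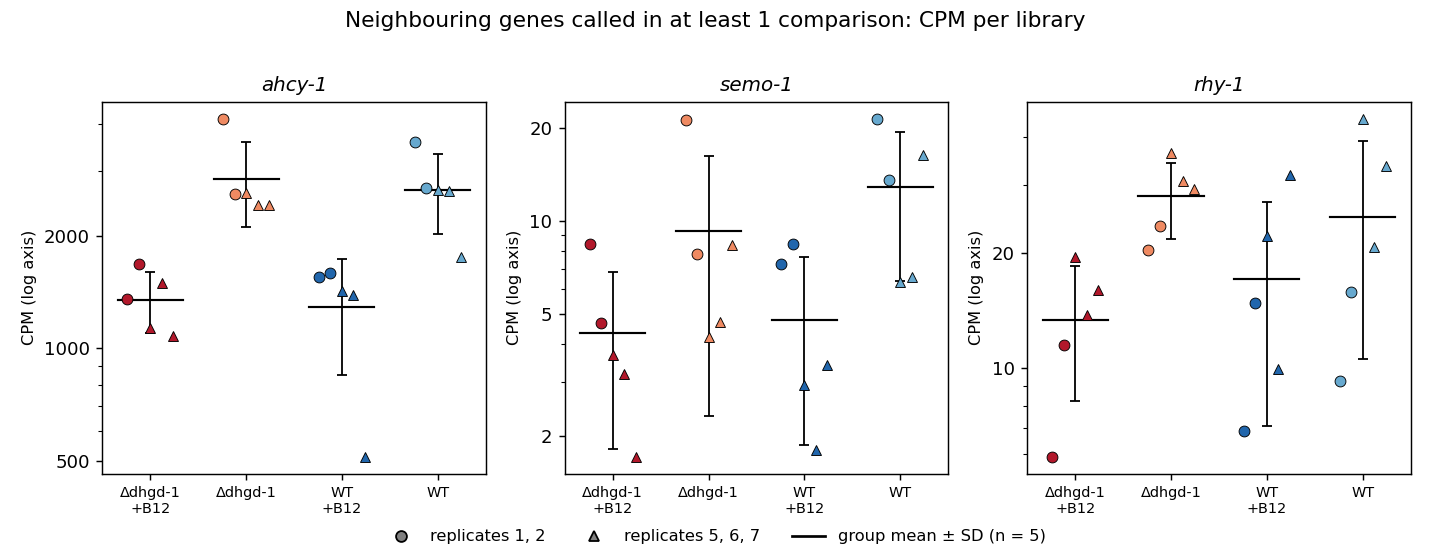
CPM per library (log axis) of the neighbouring genes *ahcy-1*, *semo-1* and *rhy-1* in the 4 groups; circles are replicates 1 and 2, triangles replicates 5, 6 and 7, and lines the group mean ± SD (n = 5). The supplemented libraries of *ahcy-1* (511.9 to 1685 CPM) lie below the unsupplemented ones (1758 to 4147 CPM) in both strains.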

How the data were processed

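The authors deposited whole-number read counts per gene for the 20 libraries, made from Cel-seq2 libraries in which samples were separated by barcode, adapters removed by Trimmomatic 0.32, reads aligned by STAR and genes counted by ESAT, pseudogenes left out. The genome build, the versions of STAR and ESAT, the use of strand and molecular identifiers are not given in the sources used here. Groups and replicate numbers came from the sample labels. Gene symbols and coordinates are those of the WBcel235 annotation, in which 22497 identifiers had a symbol. The members and the lists were chosen with earlier results of these data known.

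Counts were normalized with TMM (factors 0.857 to 1.117), filtered with filterByExpr and fitted with glmQLFit and glmQLFTest (edgeR 4.0.16, R 4.3.3) on all 20 libraries, with group and series of library names as terms and Benjamini-Hochberg adjustment per comparison. The methods describe 2 replicates sequenced on one machine and 3 on another. The library names split the replicates in the same way, but no label names the sequencer. The interaction had no fold minimum and was called by its adjusted p alone. Intervals are 95% intervals of the fit. p-values judge a group difference against the spread between libraries that group and series leave. Same-numbered libraries were not paired in this fit. For correlations, levels were log2 CPM.

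All members were named whatever their values. A neighbouring gene was named where it was called or is a paralog of a member. Protein-coding genes that overlap the 3′ end of a member were added after their positions had been seen. Same-numbered libraries deviated together from their group means in every pair (r = 0.183 to 0.710 over all genes). In 2 of the 20 pairs, replicates 2 and 7 of the unsupplemented strains, another number gave a higher correlation (0.314 against 0.477 and 0.183 against 0.47). With the means of the series also taken off, r was 0.088 to 0.648. Another number was then higher for replicates 1 and 2 of the supplemented strains (0.134 against 0.22). The same held for replicate 7 between the mutant groups (0.092 against 0.117). Replicates 1 and 2 must give the same r here, because they are the only libraries of their series in a group. By the first measure, which still holds the difference between the series, the numbers were taken to pair the libraries. A fit with the replicate as a block was run. Other alternatives were DESeq2 1.42.0 size factors, library totals alone, no low-count filter, no series term, DESeq2, the compared libraries only, no fold minimum, leaving out each library and each series alone. DESeq2 with the block was added after seeing the data. No 2 replicates were alike within counting noise (lowest chi-square per degree of freedom 19.5). The procedure was run on simulated counts with the same spread for all genes and changes between the strains alone. These counts held no series effect and no vitamin B12 effect. The run therefore could not test the series term or the finding of vitamin B12 changes. Figures were drawn with matplotlib 3.10.9 (Python 3.11.15). No sequences were compared.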

Additional observations from a re-analysis of the deposited data

Results flagged for a closer look

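In 3 of the 36 sets of 5 libraries (9 members in 4 groups) a library lay so far from the other 4 that the gap exceeded Dixon's 95% critical value of 0.71 of the whole range, where chance gives about 1.8 such sets. *cth-2* had 512.8 CPM in replicate 1 of unsupplemented WT, with a gap of 0.764 of the range. *sqrd-1* had 13.03 CPM in the same library, with a gap of 0.819. *rips-1* had 93.76 CPM in replicate 2 of unsupplemented mutants, with a gap of 0.751, and without that library its log2 fold change with vitamin B12 in mutants was -1.75 (edgeR adjusted p = 0.00197).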

How the results depend on the processing

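Of 1017 alternative values of the 9 members, 997 kept their call or stayed uncalled, 17 lost a call, 3 gained a call and 0 reversed a call. Only 8 values were called in the main fit, so the 17 losses are all among alternatives to these 8. Most of the 997 had no call to lose. The 36 values with no fold minimum came from the main fit itself and could not lose a call. Of the 997, 54 uncalled values changed sign, each of a value of at most 0.89 in size on the log2 scale. The replicate block changed no member call. Leaving out 1 library gave 1 member call between the unsupplemented strains, 0 between the supplemented strains, 3 to 4 with vitamin B12 in mutants and 3 in WT. Without the series term, 1 member was called with vitamin B12 in mutants (*msra-1*), where *cbs-1* (adjusted p = 0.0502), *cth-2* (adjusted p = 0.0578) and *rips-1* (adjusted p = 0.0767) were lost, and *cbs-1* was lost in WT (adjusted p = 0.0829). Without the low-count filter, 2 members were called between the supplemented strains (*cth-1*, adjusted p = 0.0492, and *rips-1*, adjusted p = 0.0131), and DESeq2 with the replicate block, added after seeing the data, called 1 (*cth-1*, adjusted p = 0.0209). In replicates 1 and 2 alone, 0 members were called in the comparisons of unsupplemented strains and of vitamin B12 in mutants and in WT. In replicates 5, 6 and 7 alone, 0 were called between the unsupplemented strains, where *cth-2* had an adjusted p of 0.121. The cause of these differences was not tested. All 4 calls of the neighbours were lost without the series term (adjusted p = 0.0637 to 0.471). *rhy-1* also lost its call with library totals alone (adjusted p = 0.0589), and *ahcy-1* in WT with the compared libraries only (adjusted p = 0.0941).

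The counts of all genes called, 317 between the unsupplemented strains, 62 between the supplemented strains, 210 with vitamin B12 in mutants, 163 in WT and 5 in the interaction, moved more. In the same order they were 627, 107, 372, 271 and 13 with the replicate block, 623, 194, 413, 342 and 80 without the filter, and 137, 26, 85, 80 and 2 without the series term. DESeq2 called 502, 105, 311, 244 and 22, and with the block 786, 163, 493, 363 and 37. The compared libraries alone gave 39 between the supplemented strains. Replicates 1 and 2 alone gave 22, 5, 8, 12 and 0, and replicates 5, 6 and 7 alone gave 104, 17, 119, 79 and 1. Leaving out 1 library gave 196 to 317 between the unsupplemented strains, 36 to 69 between the supplemented strains and 3 to 7 in the interaction. With vitamin B12 it gave 143 to 204 in mutants and 136 to 166 in WT. Library totals alone moved the median of all genes by 0.13 on the log2 scale between the unsupplemented strains, and the higher share of called genes from 64.7% in the TMM fit to 79%. Depth limits *cbs-2*, with at most 3 reads per library.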
